A study of Mus musculus with 4 samples.

Results

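The genes described here are 6 members of the S100 family, S100a8, S100a9, S100a4, S100a6, S100a10 and S100a11, which were chosen by name and make up 6 of the 53465 genes in the count table. They were measured in MDSCs (myeloid-derived suppressor cells), immature cells of the myeloid lineage that expand in cancer and dampen T cell responses. The cells came from spleens of BALB/c mice carrying the transplanted mammary carcinoma line 4T1 and were cultured for 6 h without EGCG (control, 0 μg/mL) or with 5 μg/mL EGCG, a polyphenol from green tea leaves. There were 2 libraries in each group, named control replicates 1 and 2 and EGCG replicates 1 and 2. The donors were male mice, 6 weeks old when 4T1 cells were injected, and their spleens were taken 21 days later by the sample labels or 14 days later by the methods of the study. Magnetic beads against Gr-1, an epitope of Ly-6G and Ly-6C, selected the cells, so that granulocytic and monocytic cells were measured as 1 mixture. No source used here says whether libraries of 1 group came from different mice or wells, and p values measure only the spread between these libraries. In bulk RNA, fewer cells of a type and less RNA per cell cannot be told apart.

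S100 proteins are small calcium-binding proteins with paired EF-hand motifs that mostly work as dimers. S100a8 and S100a9 pair to form calprotectin, which fills the cytosol of neutrophils and monocytes, binds zinc and manganese, and, once released, acts as an alarmin through TLR4 and RAGE. They are also known for their high expression in MDSCs. S100a4, S100a6, S100a10 and S100a11 are more widely expressed and act mainly inside cells, S100a4 on non-muscle myosin, S100a6 on the calcyclin-binding protein Cacybp, S100a10 and S100a11 on annexins.

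All 6 genes lie on chromosome 3 of GRCm38, in 2 places. S100a4 (ENSMUSG00000001020) spans 90603771 to 90606045, S100a6 (ENSMUSG00000001025) 90612882 to 90624181, and S100a8 (ENSMUSG00000056054) 90668978 to 90670035, each on the plus strand. S100a9 (ENSMUSG00000056071) spans 90692632 to 90695721 on the minus strand, so that S100a8 and S100a9 face each other across 22.6 kb. The other place, 2825 kb further along, holds S100a11 (ENSMUSG00000027907), from 93520488 to 93526287, and S100a10 (ENSMUSG00000041959), from 93555080 to 93564643, both on the plus strand. The promoters of 5 of the 6 members were found in RefSeq (GRCm38.p6) by symbol, and that of S100a10 is named only. They are shown as a description, and the part of promoter sequence in the members' values was not tested. Set side by side, the start sites also show which members hold the TATA box letters (TATAAA, searched on the gene's own strand, in capitals). Each line holds 90 bases before and 10 bases after the annotated start, written 5′ to 3′ along the gene.
S100a8, chr3:90668981-90669080, plus strand: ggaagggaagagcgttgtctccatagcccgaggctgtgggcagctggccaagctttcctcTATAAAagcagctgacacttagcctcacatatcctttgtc
S100a9, chr3:90695712-90695811, minus strand: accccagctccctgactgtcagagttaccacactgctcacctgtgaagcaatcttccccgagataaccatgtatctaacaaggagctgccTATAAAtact
S100a4, chr3:90603680-90603779, plus strand: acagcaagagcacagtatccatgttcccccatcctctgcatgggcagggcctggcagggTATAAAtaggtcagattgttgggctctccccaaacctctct
S100a6, chr3:90612804-90612903, plus strand: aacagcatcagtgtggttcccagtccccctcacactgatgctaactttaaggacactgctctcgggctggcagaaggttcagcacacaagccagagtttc
S100a11, chr3:93520406-93520505, plus strand: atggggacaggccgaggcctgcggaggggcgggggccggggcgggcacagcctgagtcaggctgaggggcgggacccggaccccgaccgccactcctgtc

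In windows from 250 bases before to 50 after the start, TATAAA was present in S100a8, S100a9 and S100a4 and in 8.33% of 32817 RefSeq promoters. It began at -30 in S100a8 and -31 in S100a4, and at the first transcribed base of the S100a9 start that RefSeq annotates. The RefSeq start of S100a8 lies 93 bases inside the first GENCODE exon. Of the other motifs, searched on both strands, the C/EBP letters TTGCNNAA were found in S100a9 only, at -236 (10.8% of promoters). The AP-1 letters TGANTCA occurred at -136 and -38 in S100a11 (7.81% of promoters). The PU.1 letters GAGGAA occurred in S100a8, S100a4 and S100a11 (28.3% of promoters), and the STAT letters TTCNNNGAA in none of the 5 (8.29% of promoters). In S100a8, a PU.1 match that begins at -36 directly precedes the TATA box without overlapping it.

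S100a9 and S100a8 dominated the transcriptome of these cells. TPM, which are counts per exonic length scaled to a common total, were used to compare genes with each other, and CPM, counts scaled to library sizes with TMM factors, to compare libraries. S100a9 had the highest TPM of all genes in each of the 4 libraries, from 111228 to 134985, and S100a8 ranked 2 in each, from 53877 to 73220 TPM. S100a11 (3236 to 3572 TPM) and S100a6 (2183 to 2391 TPM) followed, at ranks 17 to 19 and 30 to 36. This order of S100a11 and S100a6 depended on the length used. With the longest transcript in place of all exons, S100a6 had a mean of 3326 TPM and S100a11 one of 2797 TPM. S100a10 reached 84.2 to 98.9 TPM, and S100a4 3.33 to 7.02 TPM. Over the 4 libraries, no member's range of TPM overlapped with that of its neighbor in this order. Together the 6 genes took 3.98% of all counts in control replicate 1, 4.83% in control replicate 2, 5.60% in EGCG replicate 1 and 4.81% in EGCG replicate 2.

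**Figure D1:**
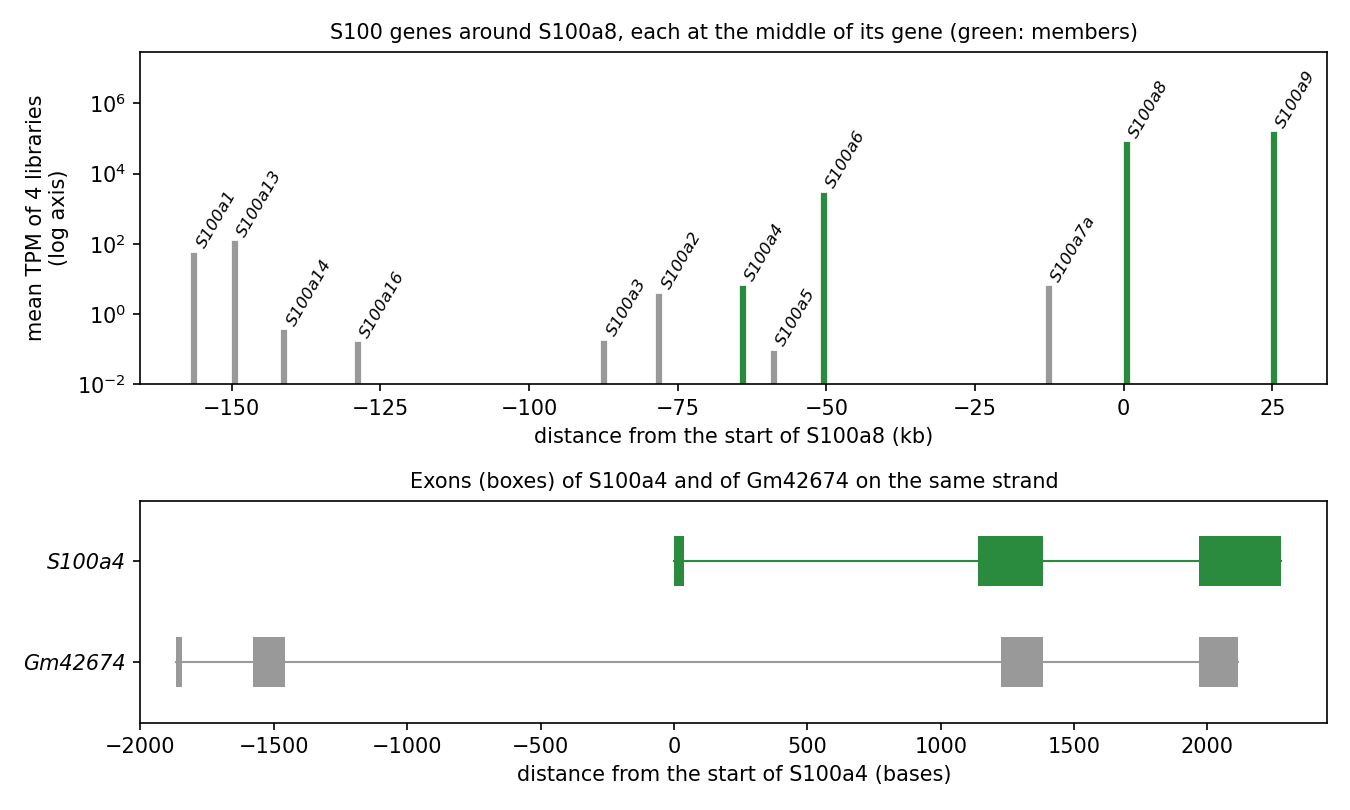
The upper part plots the mean TPM of the 4 libraries (log axis) of each S100 gene near S100a8 against its distance from the start of S100a8 in kb, with members in green and other family genes in grey. The lower part draws the exons of S100a4 and Gm42674 in bases from the start of S100a4, and the last 2 exons of Gm42674 lie within exons of S100a4.

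The question put to these libraries was how EGCG alters gene expression in MDSCs. The quasi-likelihood test of edgeR was run on the 14682 genes with enough counts, p values were adjusted over all of them by the Benjamini-Hochberg method, and the threshold was an adjusted p under 0.05. The test estimates the spread of each gene partly from all tested genes, so its standard errors, intervals and p values do not rest on that gene's libraries alone. All 6 members had enough counts to be tested. By this test, 0 of the 6 passed the threshold, against 0.15% of all tested genes in either direction and 0.0136% in the upward direction. With DESeq2, 0 passed as well. At an unadjusted p under 0.05 in edgeR, S100a8, S100a10 and S100a11 were higher with EGCG, 3 of 6 members, whereas 5.22% of all tested genes were. For 4 members, S100a8, S100a6, S100a10 and S100a11, both EGCG libraries were above both control libraries, which was the case for 21.5% of all tested genes. Short genes leaned upward in these libraries (Spearman correlation of -0.286 between log2 fold change and exonic length, over 14666 genes that do not count as replicates), and the members have 511 to 1367 exonic bases. Among the 1789 tested genes of 500 to 1500 exonic bases, 29.6% were above control in both EGCG libraries and 9.56% were higher at an unadjusted p under 0.05. Medians of the log2 fold change were 0.22 over the members, 0.08 over the genes of that length and 0.0031 over all tested genes. The part of gene length in the members' values was not tested apart from the length offset given beside them.

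**Figure D2:**
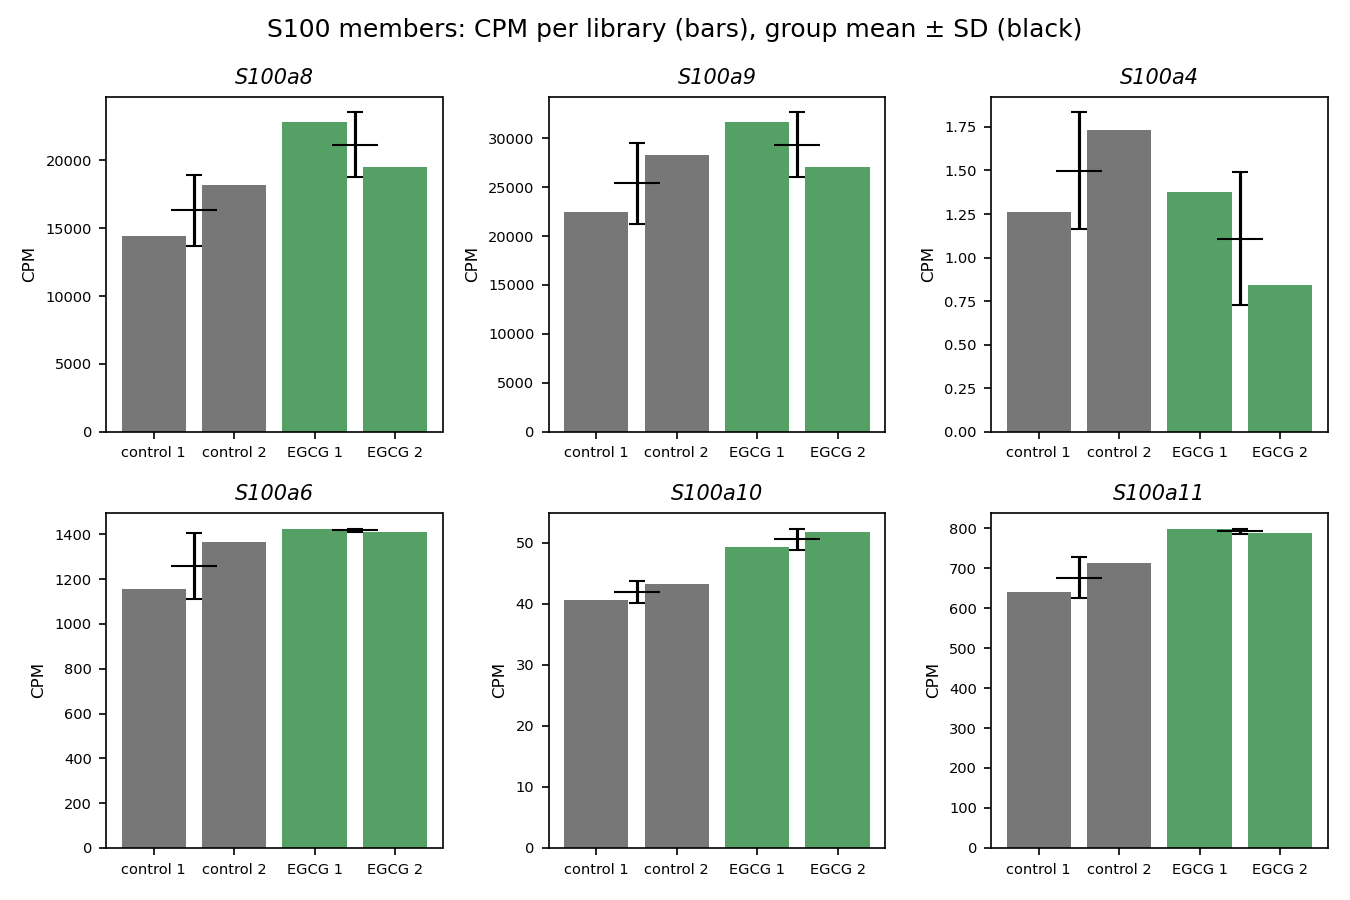
Bars in each panel give the CPM of 1 member in every library, with control in grey and EGCG in green, and the black line and whiskers give the group mean and SD (n = 2). Both EGCG libraries stood above both control libraries for S100a8, S100a6, S100a10 and S100a11, and the groups overlapped for S100a9 and S100a4.

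S100a8 encodes the calprotectin subunit that pairs with S100a9. It was at 14461 and 18163 CPM in control replicates 1 and 2, and at 22838 and 19476.5 CPM in EGCG replicates 1 and 2. Both EGCG libraries were higher than both control libraries, but the difference between control replicates was itself 0.33 on the log2 scale. The log2 fold change was 0.38 with a standard error of 0.12, and its 95% interval ran from 0.12 to 0.63. This is 1.30-fold (1.09 to 1.55), and edgeR gave an adjusted p of 0.228. DESeq2 gave the same log2 fold change of 0.38 with a larger standard error of 0.20 (adjusted p of 0.546 by DESeq2). The call depended on single libraries. Without control replicate 2 the log2 fold change was 0.55 and without EGCG replicate 2 it was 0.49, with edgeR's adjusted p values of 0.000721 and 0.000698, whereas it was 0.23 without control replicate 1 (adjusted p of 0.627) and 0.26 without EGCG replicate 1 (0.262). With 1 library left out, the lone library of its group was assumed to vary like the other group. With the length offset, the log2 fold change of S100a8 was 0.29.

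S100a9 encodes the larger calprotectin subunit and was the most abundant transcript. Its values were 22455 and 28293 CPM in the control libraries and 31668 and 27007 CPM in the EGCG libraries. Control replicate 2 was above EGCG replicate 2, so the groups overlapped. EGCG over control gave a log2 fold change of 0.21 (standard error 0.12, 95% interval -0.05 to 0.47), with an adjusted p of 0.522 by edgeR. It was 0.10 with the length offset. Leaving out control replicate 2 moved it to 0.39 (adjusted p of 0.0260), and leaving out control replicate 1 to 0.06 (0.965).

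Although both subunits varied between replicates, they did so in step. From control replicate 1 to 2, the log2 difference was 0.33 for S100a8 and 0.33 for S100a9, and from EGCG replicate 1 to 2 it was -0.23 for both. Their ratio was therefore nearly constant within a group. S100a8 made up 39.2% of the summed counts of the pair in control replicate 1 (95% Wilson interval 39.1 to 39.3) and 39.1% in control replicate 2 (39.0 to 39.2). In EGCG replicate 1 it made up 41.9% (41.8 to 42.0), and in EGCG replicate 2 also 41.9% (41.8 to 42.0). These intervals cover counting error only and take each read as an independent draw. Since reads are not independent molecules, they can be too narrow even for that. As counts of S100a8 per count of S100a9, the ratio was 0.644 and 0.642 with control medium and 0.721 in each of the EGCG libraries. The EGCG libraries thus had a higher share of S100a8 than the control libraries, while the intervals of replicates of 1 group overlapped. The difference between the log2 fold changes of S100a8 and S100a9 was 0.17, or 1.12-fold. This ratio was looked at after the values of the members had been seen, and an exact two-sided permutation test of 2 libraries against 2 cannot give a p below 0.333, so it is a description. Other pairs were less constant within groups: the ratio of S100a6 to S100a11 counts was 1.80 and 1.91 for control against 1.79 and 1.79 for EGCG, and that of S100a9 to S100a6 was 19.5 and 20.7 against 22.3 and 19.1. The course over replicates was not particular to the pair. From replicate 1 to 2, S100a13 differed by 0.29 in control and -0.17 in EGCG libraries, and Ly96 by 0.27 and -0.30. Other genes did not share it, such as Stat3 with 0.04 and 0.01.

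**Figure D3:**
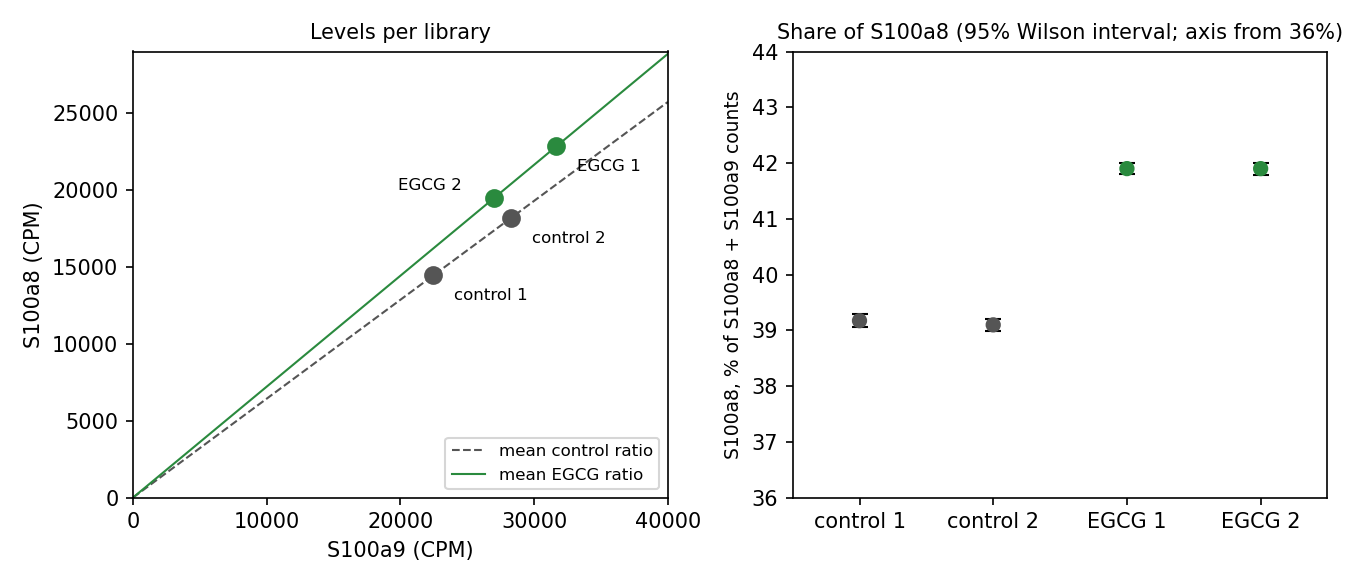
On the left, the CPM of S100a8 is plotted against the CPM of S100a9 for each library, with lines through 0 at the mean ratio of each group. On the right, the percent of S100a8 in the summed counts of the pair is plotted with its 95% Wilson interval on an axis from 36%, and it was 39.1 to 39.2% in control and 41.9% in EGCG libraries.

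S100a6 encodes calcyclin, a widely expressed binding partner of Cacybp. It was at 1154 and 1364 CPM in the control libraries and at 1423 and 1412 CPM in the EGCG libraries. Control replicate 1 was low, and control replicate 2 lay just under the EGCG libraries. On the log2 scale EGCG exceeded control by 0.17 (standard error 0.09, 95% interval -0.02 to 0.36; adjusted p of 0.469 by edgeR), 0.06 without control replicate 1, 0.30 without control replicate 2 (adjusted p of 0.0839), and 0.12 with the length offset. The 2 EGCG libraries differed by only 0.01 on the log2 scale, against 0.24 for the control libraries.

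S100a10 is the partner of annexin A2 in a complex at the plasma membrane and is the S100 protein known for no longer binding calcium. Its values were 40.6 and 43.2 CPM in the control libraries and 49.3 and 51.8 CPM in the EGCG libraries. Both EGCG libraries were above both control libraries, and the groups differed by 0.27 on the log2 scale where replicates differed by 0.09 and 0.07. The standard error was 0.09, the 95% interval ran from 0.08 to 0.46, and the adjusted p was 0.236 by edgeR. With 1 library left out the log2 fold change of S100a10 ran from 0.23 to 0.32, and it was 0.22 with the length offset.

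S100a11, or calgizzarin, binds annexin A1. It was at 639 and 713 CPM in the control libraries and at 797 and 788 CPM in the EGCG libraries. The EGCG libraries were close to each other and above both control libraries. The difference on the log2 scale was 0.23 (standard error 0.08, 95% interval 0.06 to 0.40; adjusted p of 0.274 by edgeR), 0.16 to 0.31 with 1 library left out, and 0.12 with the length offset. The counts of S100a11 are uncertain, since 48.9% of the 31-base words of its transcript also occur in transcripts of other genes. Most of these words are shared with Gm12854, a processed pseudogene on chromosome 4 (116067268 to 116067564), which was given 5113 and 5554 counts with control medium and 5899 and 6097 counts with EGCG. That is 40.8 to 43.8% of the S100a11 counts. When the counts of Gm12854 were added to those of S100a11, an alternative chosen after seeing the data, the log2 fold change was 0.21 (adjusted p of 0.320). For S100a8, S100a9 and S100a6, 0% of such words were shared, and for S100a10 0.424%.

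S100a4, also called fibroblast-specific protein or metastasin, was the exception in the level counted and in direction. It had 23 and 31 counts with control medium and 25 and 15 with EGCG, or 1.26, 1.73, 1.38 and 0.840 CPM. The groups overlapped, with EGCG replicate 1 between the control libraries. The log2 fold change was -0.43 with a standard error of 0.38 and a 95% interval from -1.23 to 0.38 (adjusted p of 0.698 by edgeR). Leaving out EGCG replicate 1 gave -0.82 leaving out EGCG replicate 2 gave -0.12, and the length offset gave -0.53. With these counts and this spread between replicates, the interval covers differences in both directions. S100a4 also shares exons with another gene model. Gm42674 (ENSMUSG00000105518), a protein-coding model on the same strand from 90601904 to 90605885, shares 302 of the 584 exonic bases of S100a4, so that 48.3% of its exonic bases are free of other genes. Gm42674 had 0 counts in all 4 libraries. How reads on shared exons were counted is not given in the sources used here, and the part of this overlap in the level of S100a4 was not tested. Spread over the free bases alone, an alternative chosen after seeing the data, its mean would be 10.96 TPM in place of 5.29. This only rescales the length and cannot restore reads that touch shared bases, if such reads were left uncounted. The level of S100a4 is therefore uncertain.

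**Figure D4:**
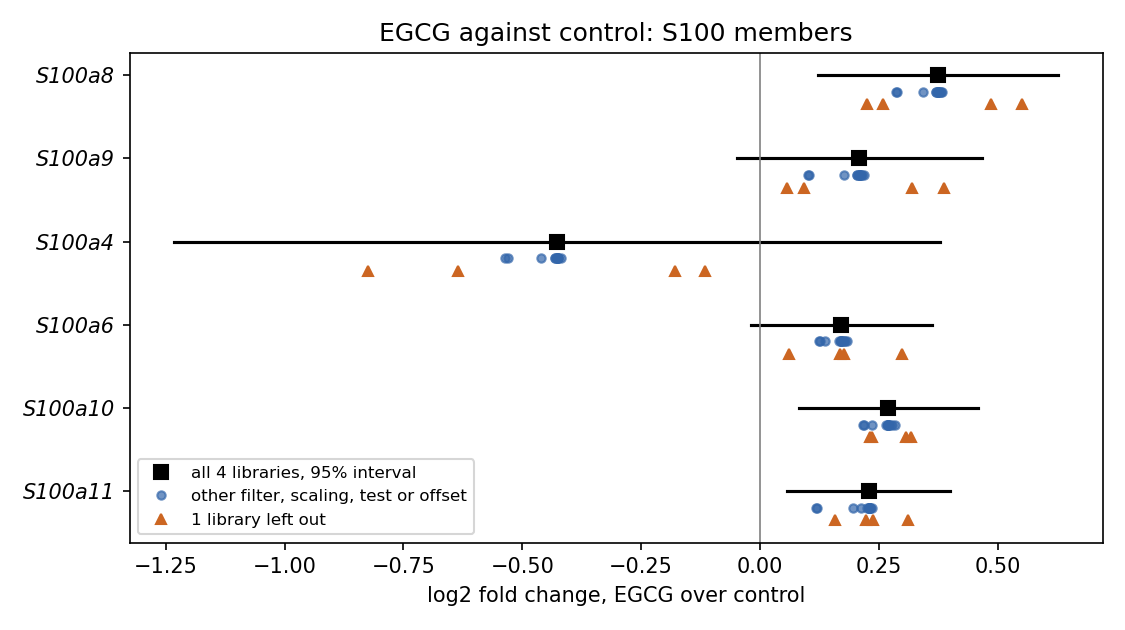
The log2 fold change of EGCG over control is plotted for each member as a black square with its 95% interval, with blue points for other filters, scalings, tests and offsets and orange triangles for fits without 1 library. The values of S100a8, S100a9, S100a6, S100a10 and S100a11 were above 0 and those of S100a4 below 0 in each of these fits, and the triangles of S100a8 run from 0.23 to 0.55. For members whose groups did not overlap, leaving out 1 library could hardly change the sign.

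Of 12 further S100 genes, 11 were in the count table and 3 were tested. S100a13 (90.7 to 103 TPM) was at a level near that of S100a10, and S100a1 was lower (41.0 to 52.8 TPM). Their log2 fold changes were 0.07 (standard error 0.11) and 0.04 (0.16), and their groups overlapped. S100a7a, which lies between S100a6 and S100a8, had 44 and 52 counts in control and 57 and 58 in EGCG libraries, and EGCG exceeded control by 0.26 on the log2 scale (standard error 0.24). S100a2, S100a3, S100a5, S100a14, S100a16 and S100g had at most 12 counts in a library, and S100b and S100z had 0 counts in all 4.

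The receptors of released S100 proteins were measured as a list of 10 genes, all tested. By edgeR's test 0 passed the threshold, and 1, Ly96, had an unadjusted p under 0.05. At that p, 5.22% of all tested genes were higher and 7.02% were lower. Ly96 encodes MD-2, the co-receptor of TLR4, and was at 10.7 and 12.9 CPM in control and 17.3 and 14.1 CPM in EGCG libraries (log2 fold change 0.41, standard error 0.14; adjusted p of 0.277 by edgeR). Tlr4, the calprotectin receptor, was at 73.6 and 76.8 CPM in control and 73.8 and 72.3 CPM in EGCG libraries. Its 95% interval was -0.21 to 0.13 on the log2 scale. Ager, which encodes RAGE, had a log2 fold change of -0.02 (standard error 0.17), the scavenger receptor Cd36 one of -0.25 (0.15), Bsg, or EMMPRIN, one of 0.07 (0.07), and Cd33, a sialic acid-binding receptor reported to bind S100a9, one of -0.15 (0.10). The median of the list was 0.0037. Without control replicate 2, Cd36 passed the threshold (-0.53, adjusted p of 0.00253 by edgeR), and without EGCG replicate 2, Ly96 did (0.55, 0.0465). The 10 genes of the TLR4 signaling chain, from Myd88 to Rela, ran from -0.11 to 0.08. Of these, 0 had an unadjusted p under 0.05 in edgeR, against the same 5.22% higher and 7.02% lower of all tested genes.

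Inside the cell, the known partners of the members went in both directions. Of 7 partner genes, 0 passed the threshold, and 1 was higher and 2 were lower at an unadjusted p under 0.05 in edgeR. Among all tested genes, 5.22% were higher and 7.02% were lower at that p. Anxa2, the partner of S100a10, had a log2 fold change of 0.0075 (95% interval -0.17 to 0.18), and Anxa1, the partner of S100a11, one of 0.17 (-0.05 to 0.38). Cacybp, the partner of S100a6, was at 33.2 and 33.4 CPM in control and 38.3 and 39.1 CPM in EGCG libraries (log2 fold change 0.22, standard error 0.09; adjusted p of 0.359 by edgeR). Myh9, the myosin heavy chain that S100a4 binds, was at 3495 and 3443 CPM in control and 2775 and 3164 CPM in EGCG libraries (-0.22, standard error 0.09; adjusted p of 0.330). Ahnak, a giant scaffold protein bound by S100a10 and Anxa2, had the largest difference of the list, from 306 and 235 CPM to 157 and 195 CPM (-0.62, standard error 0.12), with an adjusted p of 0.0550 by edgeR. It passed the threshold with library size only, the newer edgeR fit, the GC offset and each of the 4 libraries left out (-0.79 to -0.41), fits of which the last call 77 to 354 genes in all. It did not pass with DESeq2, the robust fit, other scalings or filters, the replicate block or the length offset, and was chosen for mention after its values were seen.

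Of 7 transcription factor genes tied to S100a8 and S100a9, 6 had a log2 fold change above 0, as did 50.6% of all tested genes. By edgeR's test 0 passed the threshold, and 2 were higher at an unadjusted p under 0.05 (5.22% of all tested genes). These were the C/EBP family genes Cebpd and Cebpb. Cebpd was at 264 and 262 CPM in control and 338 and 308 CPM in EGCG libraries (0.30, standard error 0.08; adjusted p of 0.138 by edgeR), and passed the threshold without EGCG replicate 2 (0.37, 0.0256). Cebpb was at 414 and 406 CPM in control and 440 and 515 CPM in EGCG libraries (0.22, standard error 0.08; adjusted p of 0.324). Spi1, which encodes PU.1, had a log2 fold change of 0.12 (standard error 0.08) and Stat3 one of -0.02 (0.07).

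**Figure D5:**
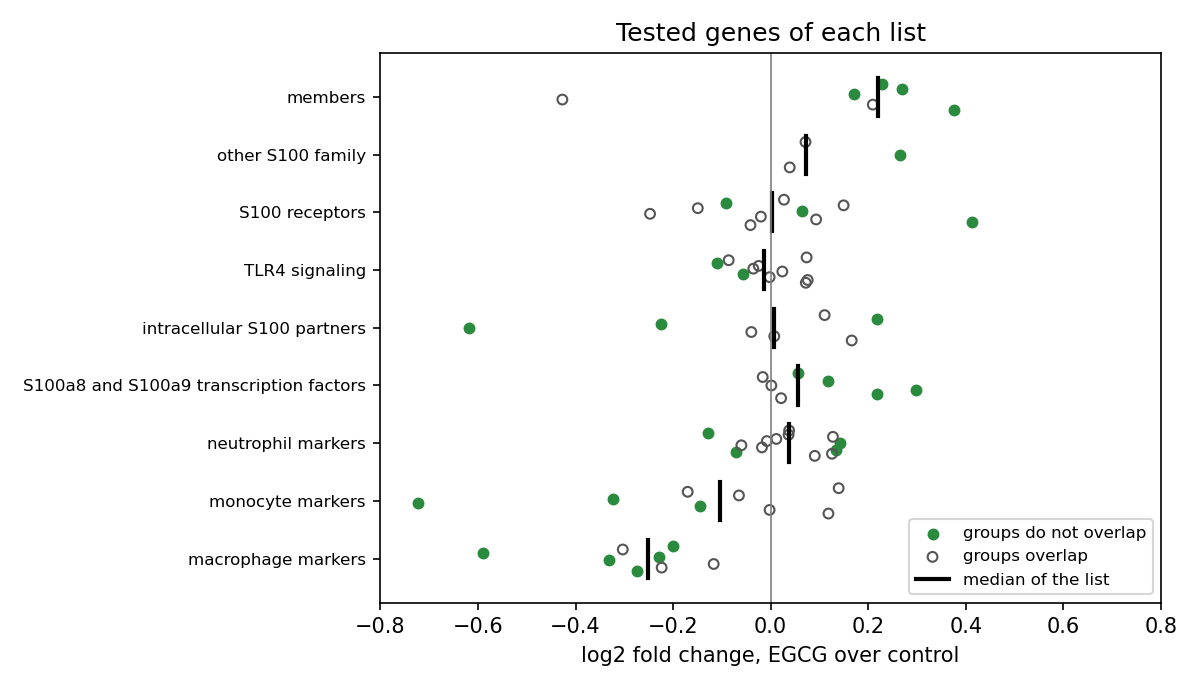
Each point is the log2 fold change of EGCG over control of 1 tested gene, by list, filled where the groups did not overlap, and the black line is the median of the list. The members had a median of 0.22, the neutrophil markers one of 0.04 and the macrophage markers one of -0.25.

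The labelled cell type was checked by markers. All 13 neutrophil markers were expressed, and their summed level was 27832 and 30048 CPM in control and 30933 and 29470.5 CPM in EGCG libraries, lowest in control replicate 1 and highest in EGCG replicate 1, as for S100a8 and S100a9. Their log2 fold changes ran from -0.13 to 0.14 and 0 of 13 had an unadjusted p under 0.05. Single markers did not share 1 order of libraries: 2 were highest in control replicate 1, 4 in control replicate 2, 4 in EGCG replicate 1 and 3 in EGCG replicate 2. The 8 monocyte markers summed to 1327 to 1545 CPM in control and 1190 to 1245 CPM in EGCG libraries, with 0 past the threshold and 2, Fn1 and F13a1, lower at an unadjusted p under 0.05 in edgeR. Fn1, or fibronectin, was at 490 and 304 CPM in control and 218 and 263 CPM in EGCG libraries and made up most of that difference. It passed the threshold with library size only and in 3 of the 4 fits without 1 library, and F13a1 in 1 of them. The 8 macrophage markers summed to 715 to 724 CPM in control and 563 to 646 CPM in EGCG libraries. All 8 macrophage markers had a log2 fold change below 0, as did 49.4% of all tested genes, with 0 past the threshold and 4 at an unadjusted p under 0.05 in edgeR (7.02% of all tested genes were lower at that p). Cd5l passed it with DESeq2 (-0.59, adjusted p of 0.0381), with library size only and in 2 fits without 1 library, and Adgre1, C1qc, Spic and Hmox1 in 1 such fit each. The 4 tested endothelial markers were also lower with EGCG, 0 past the threshold and 4 at an unadjusted p under 0.05 against the same 7.02%, and the list summed to 114 to 126 CPM in control and 94.2 to 98.6 CPM in EGCG libraries. Cdh5 passed the threshold with library size only and in 2 fits without 1 library, and Kdr in 1 such fit. No neutrophil, monocyte or macrophage marker was at 0. The part of these markers in the values of the members was not tested. Basophil and eosinophil markers summed to 985 to 1112 CPM in control and 821 to 956 CPM in EGCG libraries, and 2 of the 4, Epx (-0.31) and Prg2 (-0.26), were lower at an unadjusted p under 0.05. Both passed the threshold without control replicate 2, and Prg2 also without EGCG replicate 1. Platelet markers summed to 38.7 to 43.6 CPM in control and 34.2 to 35.4 CPM in EGCG libraries, with all 5 below 0 and 1 at an unadjusted p under 0.05. B cell markers summed to 378 to 393 and 382 to 423 CPM, T and NK cell markers to 89.0 to 101 and 102 to 104 CPM, and erythroid markers to 159 to 200 and 186 to 213 CPM in control and EGCG libraries. Most of the T and NK cell sum was Cd3d, at 75.2 and 86.0 CPM in control and 87.7 and 90.2 CPM in EGCG libraries. Every other marker of that list was at most 5.15 CPM. At an unadjusted p under 0.05 in edgeR, at which 5.22% of all tested genes were higher, 1 B cell and 1 erythroid marker were higher. The latter, Hbb-bs, passed the threshold without control replicate 2. Epithelial markers, which 4T1 cells would carry, summed to 24.3 to 26.7 CPM in control and 22.7 to 25.9 CPM in EGCG libraries. They did not move together: Epcam had 65 and 59 counts in control and 92 and 99 in EGCG libraries (0.63), Cdh1 had 402 and 366 against 294 and 345 (-0.26), both at an unadjusted p under 0.05, Krt18 had at most 24 counts, Krt8 at most 2 and Krt19 had 0 in all libraries.

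Over the 4 libraries, the genes whose pattern was most like that of S100a8 were sought by the distance between log2 CPM values centred on each gene's mean, among 3206 abundant genes outside the 6 members. They were Stfa3, with a distance of 0.0439, BC117090 (0.0443) and mt-Rnr2 (0.0553), where S100a9 itself had a distance of 0.166. Stfa3, which encodes a stefin A protease inhibitor of neutrophils, was at 250 and 328 CPM in control and 402 and 344 CPM in EGCG libraries. For S100a4 the nearest were Frg1 (0.284), Slfn4 (0.309) and Gm20559 (0.316), all at larger distances. Among the members, S100a6, S100a10 and S100a11 lay close to each other, from 0.0808 between S100a6 and S100a11 to 0.154 between S100a6 and S100a10, and S100a4 was at 0.702 or more from every other member. With 4 libraries these distances describe the libraries only.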

How the data were processed

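RNA-seq counts of 2 control and 2 EGCG libraries were used, grouped by their labels. The authors aligned reads to GRCm38 with STAR 2.6.0c, per the submitters' processing notes, counted genes with featureCounts 1.6.2 on Ensembl release 91, and deposited whole-number counts per gene, named as non-stranded and not normalized; 0 lines named no gene. Library totals were 17767318 to 18390385 counts. Counting error weighs most on genes with few counts, S100a4 among the members and S100a7a and Krt18 among the other tested genes named. Named genes that were not tested, such as Krt8, had fewer counts still. Genes were filtered by filterByExpr (minimum count of 10), scaled by TMM and tested in edgeR 4.0.16 (legacy quasi-likelihood fit, R 4.3.3). Gene models, lengths and overlaps came from GENCODE M21 (GRCm38). The length offset was a loess (span 0.4) of log counts on log exonic length per library. Centred log2 CPM had a prior count of 2, and the genes compared an average of at least 6. Alternatives were other filters, scalings, fits and offsets, DESeq2 1.42.0, a replicate block and leaving out libraries. The test was first tested on simulated data. Named genes are the members, the other S100 genes, listed genes past the threshold, 12 genes by role, and the 3 genes most like S100a8 and S100a4. A few others are named after their values were seen, namely Ly96, Cebpd, Ahnak, the epithelial markers, Epx, Prg2, Hbb-bs, Fn1, F13a1 and Cd5l. The same holds for Adgre1, C1qc, Spic, Hmox1, Cdh5, Kdr, Cd3d, Gm12854 and Gm42674. The members and lists were chosen with earlier results of these data known. Protein sequences were not used here.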

Additional observations from a re-analysis of the deposited data

How the results depend on the processing

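Each member kept its direction under all alternatives that gave a value and with each library left out. All of these fits reuse the same 4 libraries. For S100a8, S100a6, S100a10 and S100a11, both EGCG libraries lay above both control libraries, so leaving out 1 library could hardly reverse the direction. S100a4 had no value with a minimum count of 50, and DESeq2 gave it no adjusted p. Of the 6 members, 0 passed the threshold under every alternative other than leaving out a library. With a library left out, the number past the threshold ran from 0 to 2. The log2 fold change then ran from 0.23 to 0.55 for S100a8 and from 0.0573 to 0.39 for S100a9. The number of all genes past the threshold was 22 and moved to 151 with library size only, 64 with DESeq2, 63 with the robust fit, 39 with the GC offset (added after seeing the data), 11 with upper-quartile scaling, 10 with a minimum count of 50, 8 with the length offset, 3 with the length offset and replicate block, and 0 without a filter, and it ran from 77 to 354 with a library left out. The labels number the replicates but name no shared animal or day, and same-numbered libraries deviated together only weakly (correlation of 0.0336 across genes). With the replicate block, 30 genes passed and the log2 fold changes of the members were 0.38 for S100a8, 0.21 for S100a9, -0.43 for S100a4, 0.18 for S100a6, 0.27 for S100a10 and 0.23 for S100a11, with no change of call. The depth of 15 to 31 counts limits S100a4. The causes of these shifts were not tested.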
